A study of Mus musculus with 8 samples.

Results

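The Fc gamma receptor and phagocyte oxidase genes are 9 of the 55450 gene rows of a raw read count table: the Fc gamma receptors Fcgr1, Fcgr2b, Fcgr3 and Fcgr4, their shared signalling chain Fcer1g, and the phagocyte NADPH oxidase subunits Cybb, Cyba, Ncf1 and Ncf4. They were taken by name, and all 9 were among the 16662 genes that passed the filter on low counts. RNA was sequenced from cells enriched on magnetic beads for c-Kit, a receptor of blood cell precursors, mast cells and the melanocyte lineage. The cells came from subcutaneous tumours of B16F10, a pigmented C57BL/6 melanoma line, removed on day 17 after injection of 150000 cells into wild-type C57BL6 mice aged 6 weeks. In 4 libraries, from tumours numbered 2 to 5, the injected line was Scramble B16F10, and in the other 4, from tumours numbered 1 to 4, it was PERK KO B16F10, which lacks a kinase of the endoplasmic reticulum stress response. All hosts were wild-type and immunocompetent, so that host cells in both groups carried intact PERK. How the PERK-deficient line was made and whether it is 1 clone, and whether each tumour grew in a mouse of its own, are not given in the sources used here, so p-values measure only the spread between these libraries.

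Fc gamma receptors bind the constant part of IgG antibodies on the surface of macrophages, monocytes, dendritic cells, mast cells, neutrophils and other leukocytes. In mice Fcgr1, Fcgr3 and Fcgr4 are activating and signal through Fcer1g, whose tyrosine motif is phosphorylated by kinases of the Src family and then recruits the kinase Syk. Fcgr2b is the inhibitory receptor, and its own tyrosine motif recruits the phosphatase SHIP1, encoded by Inpp5d. The phagocyte oxidase makes superoxide at the membrane: Cybb is the catalytic subunit and Cyba its stabilising partner, while Ncf1 and Ncf4 wait in the cytosol and join them, with a Rac protein, on activation.

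Scramble libraries held 44950033 to 56697163 counts each, and PERK-deficient libraries 29006949 to 47530393. Mitochondrially encoded genes took 3.71 to 4.50% of counts in scramble libraries and 5.22, 19.2, 13.9 and 6.89% in PERK-deficient libraries 1 to 4, so PERK-deficient libraries 2 and 3 stood apart. Eif2ak3, which encodes PERK, was at 48.3 to 59.2 CPM in scramble and 7.73 to 22.7 CPM in PERK-deficient libraries, where CPM is counts per 1000000 counts of a TMM-scaled library, and every library matched its label. Kit itself was at 170 to 223 CPM in scramble and 139 to 211 CPM in PERK-deficient libraries. With no library of unenriched cells, these levels cannot check the bead enrichment. The fraction was not pure blood precursors: 11 melanocyte lineage markers together took 24714 to 25288 CPM in scramble and 16376 to 19980 CPM in PERK-deficient libraries, and 7 of them were called lower.

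Promoter sequences from RefSeq (build GRCm38.p6) were found for 8 of the 9 genes; there was none for Ncf4. The receptor promoters below are shown because the members moved together and because PU.1, the Ets factor of the myeloid lineage, binds such sites in phagocyte genes. The bases shown are the 150 before the annotated start, 5′ to 3′ on the gene's strand, with the letters GAGGAA, or TTCCTC on the other strand, in capitals.
Fcgr1 (chr3:96293970-96294119, minus strand): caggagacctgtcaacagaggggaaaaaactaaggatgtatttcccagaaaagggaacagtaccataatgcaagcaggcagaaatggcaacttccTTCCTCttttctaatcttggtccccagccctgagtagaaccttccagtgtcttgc
Fcgr3 (chr1:171059395-171059544, minus strand): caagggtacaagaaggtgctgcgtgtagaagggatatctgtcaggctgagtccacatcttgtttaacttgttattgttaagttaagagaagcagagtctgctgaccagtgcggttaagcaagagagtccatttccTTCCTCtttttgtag
Fcgr4 (chr1:171018776-171018925, plus strand): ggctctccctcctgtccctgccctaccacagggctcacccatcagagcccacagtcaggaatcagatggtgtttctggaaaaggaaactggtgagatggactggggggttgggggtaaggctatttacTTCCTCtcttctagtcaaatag
Fcgr2b (chr1:170976072-170976221, minus strand): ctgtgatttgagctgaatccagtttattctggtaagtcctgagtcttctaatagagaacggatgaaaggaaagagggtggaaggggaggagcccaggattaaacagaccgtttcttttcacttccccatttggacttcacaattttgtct
In these windows the match began 55 bases before the start in Fcgr1, 15 before it in Fcgr3 and 22 before it in Fcgr4, and Fcgr2b had none. Over the full windows, from 250 bases before to 50 after the start, 4 of 8 members held GAGGAA on either strand (the fourth was Cybb, after its start), against 28.1% of 32544 promoters. A match is a description of letters, and binding was not measured.

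The oxidase promoters of Cybb and Ncf1 are shown for a different motif, GAAA, then NN, then GAAA on either strand (N is any base), a repeat that interferon regulatory factors recognise, here in capitals.
Cybb (chrX:9469325-9469474, minus strand): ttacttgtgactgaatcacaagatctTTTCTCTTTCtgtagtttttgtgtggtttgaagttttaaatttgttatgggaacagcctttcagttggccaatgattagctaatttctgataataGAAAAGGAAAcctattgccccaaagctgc
Ncf1 (chr5:134229626-134229775, minus strand): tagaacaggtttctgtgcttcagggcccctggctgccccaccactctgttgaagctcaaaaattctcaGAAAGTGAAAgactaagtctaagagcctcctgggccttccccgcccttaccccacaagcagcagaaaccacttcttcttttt
This motif occurred in 3 of 8 members (Cybb, Ncf1 and Fcgr4) and in 3.45% of all promoters. These motifs do not overlap each other in these windows. Another motif, TTCNNNGAA, the palindrome bound by STAT factors, occurred in Fcgr1 and Ncf1 and in 8.33% of all promoters; in Ncf1 it overlapped the paired site.

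The comparison asked what loss of PERK from the injected melanoma cells does to RNA levels in cells taken with c-Kit beads. All 9 genes rose in PERK-deficient tumours at an edgeR quasi-likelihood adjusted p under 0.05, over a background in which 7.66% of all tested genes were called higher and 6.13% lower. Of the calls over all genes, 55.5% were higher with TMM, 68.7% with upper-quartile factors and 47.7% with library totals alone. The median log2 change of the members was 2.44, against -0.02 over all genes tested. In 8 of the 9 every PERK-deficient library lay above every scramble library, as at 10.2% of all tested genes, and Fcgr4 was the exception. DESeq2 also called 9 of 9 higher, against 11.2% of all genes higher and 6.58% lower. Without scramble replicate 5, which left the fewest members called, 4 of 9 rose, against 4.45% of all genes higher and 3.41% lower. Without the PERK-deficient libraries 2 and 3 of high mitochondrial share, 6 of 9 rose, against 7.2% higher and 7.21% lower. The members were listed with earlier results of these data known, so the count describes them and is no independent evidence of direction. In bulk RNA, more cells of a type and more RNA per cell cannot be told apart.

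**Figure D1:**
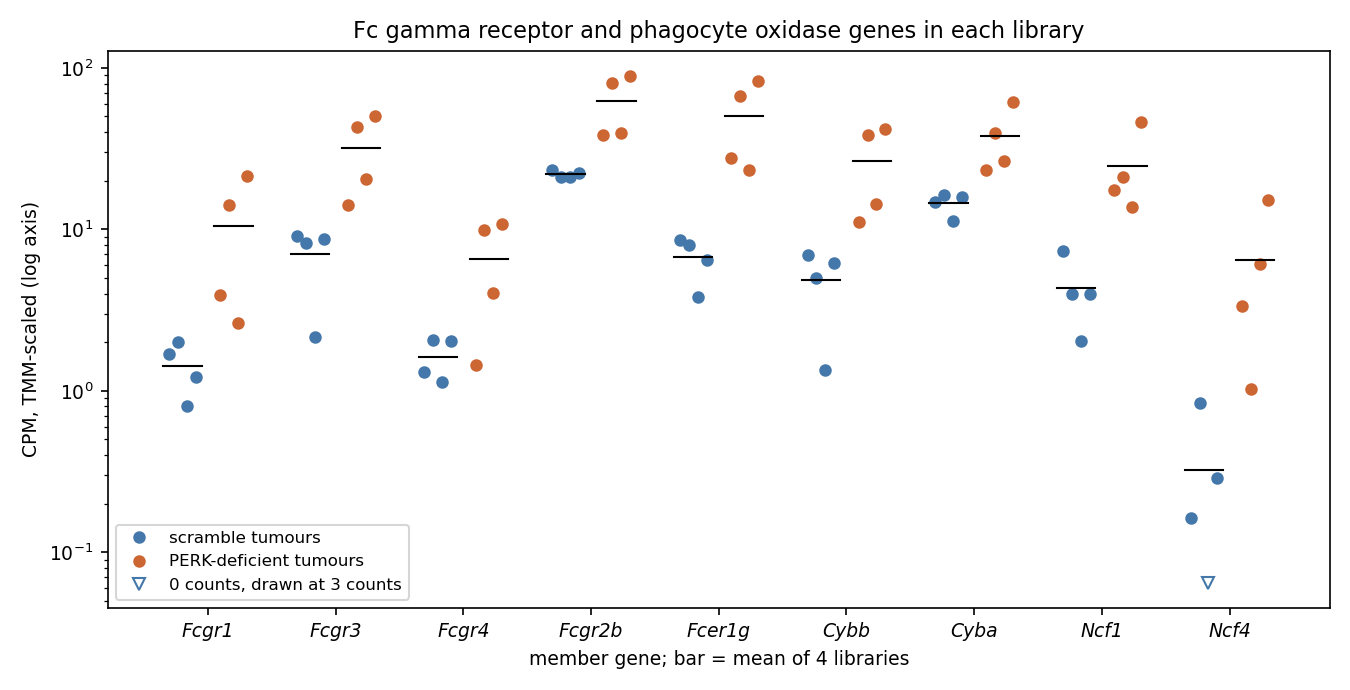
CPM of each member gene (log axis) in the 4 scramble libraries and the 4 PERK-deficient libraries, in order of tumour number, with the mean of each group as a bar. The groups are apart for every gene but Fcgr4, PERK-deficient library 4 is the highest point throughout, and Ncf4, with no count in scramble library 4, is drawn there as an open triangle at the floor of 3 counts.

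Among the activating receptors, Fcgr1, the high-affinity IgG receptor of macrophages (ENSMUSG00000015947.10, mm10 chromosome 3, 96282909 to 96293969), had 1.70, 2.01, 0.801 and 1.22 CPM in scramble libraries 2 to 5. In PERK-deficient libraries 1 to 4 it had 3.92, 14.1, 2.62 and 21.4 CPM. Libraries 2 and 4 of the PERK-deficient group were high and libraries 1 and 3 lay nearer to the highest scramble library. On the log2 scale Fcgr1 rose by 2.87 (SE 0.63, 4 libraries a group, edgeR adjusted p = 0.0130). It no longer passed once scramble replicate 5 was left out (edgeR adjusted p = 0.0521). The change was smaller without PERK_KO replicate 4, at 2.26, and with limma-voom, at 2.18.

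Fcgr3, the low-affinity activating receptor (ENSMUSG00000059498.13, chromosome 1, 171051174 to 171064935), had 9.09, 8.28, 2.17 and 8.71 CPM in scramble libraries 2 to 5. It had 14.1, 42.8, 20.4 and 50.7 CPM in PERK-deficient libraries 1 to 4. Scramble library 4 lay far under the other 3 scramble libraries, and no libraries of the groups overlapped. Fcgr3 rose by 2.18 (SE 0.53, edgeR adjusted p = 0.0291). The call was lost with any of scramble replicates 2, 3 or 5 omitted (edgeR adjusted p = 0.0684, 0.0876 and 0.0725), with PERK_KO replicate 2 omitted (0.0615), and when no filter on low counts was used (0.0973).

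Fcgr4, the activating receptor that binds the IgG2 subclasses (ENSMUSG00000059089.4, chromosome 1, 171018920 to 171029761), had 1.30, 2.06, 1.13 and 2.03 CPM in scramble libraries 2 to 5. It had 1.44, 9.93, 4.04 and 10.8 CPM in PERK-deficient libraries 1 to 4. PERK-deficient library 1 lay below 2 of the scramble libraries, so the groups overlapped. Fcgr4 rose by 2.00 (SE 0.56, edgeR adjusted p = 0.0339), the call of the members that most often ended. It was lost with any 1 of the 4 scramble libraries omitted, in order of tumour number (edgeR adjusted p = 0.0972, 0.0764, 0.0961 and 0.0722), with PERK_KO replicate 2 or 4 omitted (0.0871 for each) and with limma-voom (0.0680).

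Fcgr2b, the inhibitory receptor (ENSMUSG00000026656.15, chromosome 1, 170958617 to 170976547), was the most even of the receptors in scramble tumours, at 23.3, 21.2, 21.0 and 22.4 CPM in libraries 2 to 5. In PERK-deficient libraries 1 to 4 it had 38.6, 80.6, 39.7 and 89.0 CPM, again with libraries 2 and 4 high, and the groups did not overlap. It rose by 1.50 (SE 0.26, edgeR adjusted p = 0.00581), and the call held without each of the 8 libraries in turn. Fcgr2b and Fcgr3 have near-identical stretches, so their counts are uncertain to that extent. Of the 105-base windows in annotated Fcgr3 transcripts, 34 of 1733 (1.96%) also occur in a Fcgr2b transcript, and 59 of 5858 Fcgr2b windows (1.01%) occur in another gene. Fcgr1, Fcgr4, Fcer1g and the 4 oxidase genes share no such window with another gene.

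Fcer1g, the chain through which the activating receptors and the mast cell IgE receptor signal (ENSMUSG00000058715.11, chromosome 1, 171229572 to 171234365), had 8.64, 7.97, 3.83 and 6.46 CPM in scramble libraries 2 to 5. In PERK-deficient libraries 1 to 4 it had 27.5, 67.2, 23.5 and 83.4 CPM. The lowest PERK-deficient library was well above the highest scramble library. Fcer1g rose by 2.90 (SE 0.47, edgeR adjusted p = 0.00590), and the call held without each library in turn. Markers of mast cells rose between the groups too, with 9 of 10 tested called higher. The 12 listed together took 23.1 to 168 CPM in scramble and 715, 1069, 1614 and 3165 CPM in PERK-deficient libraries 1 to 4. Their order there differed from that of Fcer1g, which was lowest in library 3. Macrophage marker sums, at 380, 834, 354 and 1014 CPM, had the same order as Fcer1g. The part of either cell type in the Fcer1g result was not tested.

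Of the membrane subunits of the oxidase, Cybb (ENSMUSG00000015340.10, chromosome X, 9435252 to 9487771) had 6.90, 5.03, 1.34 and 6.17 CPM in scramble libraries 2 to 5. In PERK-deficient libraries 1 to 4 it had 11.1, 38.3, 14.4 and 41.6 CPM. As with Fcgr3, scramble library 4 was low and PERK-deficient libraries 2 and 4 were high, without overlap. Cybb rose by 2.44 (SE 0.59, edgeR adjusted p = 0.0281). The call was lost with any of scramble replicates 2, 3 or 5 omitted (edgeR adjusted p = 0.0617, 0.0943 and 0.0703), with PERK_KO replicate 2 omitted (0.0579) and with no filter (0.0944).

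Cyba, its partner in the membrane (ENSMUSG00000006519.11, chromosome 8, 122424776 to 122432930), had 14.7, 16.4, 11.3 and 15.9 CPM in scramble libraries 2 to 5 and 23.4, 39.6, 26.7 and 61.7 CPM in PERK-deficient libraries 1 to 4. The groups did not overlap, and the scramble libraries lay close together. Cyba rose by 1.38 (SE 0.27, edgeR adjusted p = 0.00866), and this call held without each library in turn.

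Ncf1, the cytosolic organiser subunit (ENSMUSG00000015950.13, chromosome 5, 134220053 to 134229625), had 7.39, 4.00, 2.04 and 3.99 CPM in scramble libraries 2 to 5. It had 17.6, 21.1, 13.8 and 46.4 CPM in PERK-deficient libraries 1 to 4. Library 4 was the lowest of the scramble and the highest of the PERK-deficient group, and the groups did not overlap. Ncf1 rose by 2.50 (SE 0.46, edgeR adjusted p = 0.00761). The call held without each library in turn, and the log2 change then ran from 2.00 to 2.88. Gtf2ird2 lies on the other strand and shares 408 exonic bases with Ncf1. Its level was 18.0 ± 0.877 CPM in the scramble group (SD, n = 4) and 12.4 ± 3.16 CPM in the other (edgeR adjusted p = 0.0822), and whether the counting used strand is not given in the sources used here.

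Ncf4, the cytosolic subunit that binds a phosphoinositide of the phagosome membrane (ENSMUSG00000071715.12, chromosome 15, 78244801 to 78262580), was the scarcest member. It had 9, 49, 0 and 15 counts in scramble libraries 2 to 5 and 100, 42, 263 and 585 counts in PERK-deficient libraries 1 to 4. These counts are 0.163, 0.841, 0 and 0.290 CPM in scramble and 3.35, 1.02, 6.11 and 15.2 CPM in PERK-deficient libraries, and the floor of 3 counts in the empty library is 0.0650 CPM. Unlike the other members, PERK-deficient library 2 was its lowest in that group, not among its highest. Ncf4 rose by 4.28 (SE 1.10, edgeR adjusted p = 0.0291), a size loosely set by the few scramble counts: it was 5.36 without scramble replicate 3 and 3.41 without PERK_KO replicate 4. The call was lost with any of scramble replicates 2 or 5 omitted (edgeR adjusted p = 0.0997 and 0.0956), with PERK_KO replicate 4 omitted (0.0639) and with no filter (0.0895).

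The members did not vary independently. Scramble library 4 was the lowest of its group for 9 of 9 members, PERK-deficient library 4 the highest of its group for 9 of 9, and PERK-deficient library 2 the next highest for 8 of 9. After the group means were subtracted, the 36 pairs of members had a median Pearson r of 0.79 over the 8 libraries, from 0.03 to 0.99, as a description of libraries that share their cell makeup. Macrophage markers ordered the libraries in the same way at the extremes. The 17 listed together took 71.7 CPM in scramble library 4 against 154 to 167 CPM in the other scramble libraries. In PERK-deficient libraries 1 to 4 they took 380, 834, 354 and 1014 CPM. These extremes were not particular to macrophage markers. Sums of pan-leukocyte, mast cell, dendritic cell, B cell, NK and T cell, and epithelial markers had the same lowest and highest libraries. Monocyte, neutrophil, endothelial and melanocyte lineage sums did not have both. The non-member genes with the profile most like the mean of the members, by the same within-group correlation over 8 libraries, were Ets2 (r = 0.992), Lyz2 (0.991), Nfatc1 (0.987), Siglec1 (0.987) and Id3 (0.986). Lyz2, which encodes a lysozyme, was among the listed macrophage markers. Ets2, Nfatc1, Siglec1 and Id3 were on none of the marker lists. The cell source of this profile was not tested. Between the groups Lyz2, Nfatc1 and Siglec1 were called higher (edgeR adjusted p = 0.0249, 0.00452 and 0.0207). Ets2 and Id3 were not called (edgeR adjusted p = 0.0771 and 0.339).

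Per kilobase of exon, Cyba and Fcer1g were the most abundant members in both groups. In scramble tumours Cyba had 14.0 ± 2.20 CPM per kilobase (SD, n = 4) and Fcer1g 7.69 ± 2.44, followed by Fcgr3 at 4.07 ± 1.89 and Fcgr2b at 3.80 ± 0.184, which did not differ beyond their spread. Fcgr4 (1.30 ± 0.386), Ncf1 (1.19 ± 0.607), Cybb (0.837 ± 0.425) and Fcgr1 (0.553 ± 0.205) came next, each overlapping its neighbour in the order, though Fcgr4 lay above Fcgr1 in every scramble library, and Ncf4 was last at 0.160 ± 0.181. In PERK-deficient tumours Fcer1g came first at 57.7 ± 33.8 CPM per kilobase, then Cyba at 36.4 ± 16.7 and Fcgr3 at 18.4 ± 10.1. Fcgr2b followed at 10.7 ± 4.59, and the other 5 members lay between 3.18 and 6.75, none apart from its neighbour beyond the spread.

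Ratios between members within a library do not depend on how libraries are scaled, and they are given as values with no test. The summed level per kilobase of the activating receptors was 1.72, 1.96, 0.676 and 1.84 times that of Fcgr2b in scramble libraries 2 to 5. It was 1.62, 2.73, 2.33 and 3.00 times in PERK-deficient libraries 1 to 4. PERK-deficient libraries 2, 3 and 4 were above all scramble libraries and library 1 was not. Fcer1g stood at 1.04 to 1.79 times the activating receptors in scramble and 1.68 to 2.92 times in PERK-deficient libraries, which overlapped.

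Within the oxidase, Cybb per kilobase was 0.0841, 0.0549, 0.0212 and 0.0693 of Cyba in scramble libraries 2 to 5 and 0.0845, 0.173, 0.0965 and 0.121 in PERK-deficient libraries 1 to 4. The groups touched without overlapping, since the lowest PERK-deficient and the highest scramble value were nearly equal. Ncf1 and Ncf4 together were 1.16 to 2.40 times Cybb in scramble and 0.952 to 3.39 times in PERK-deficient libraries, so this ratio overlapped widely.

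**Figure D2:**
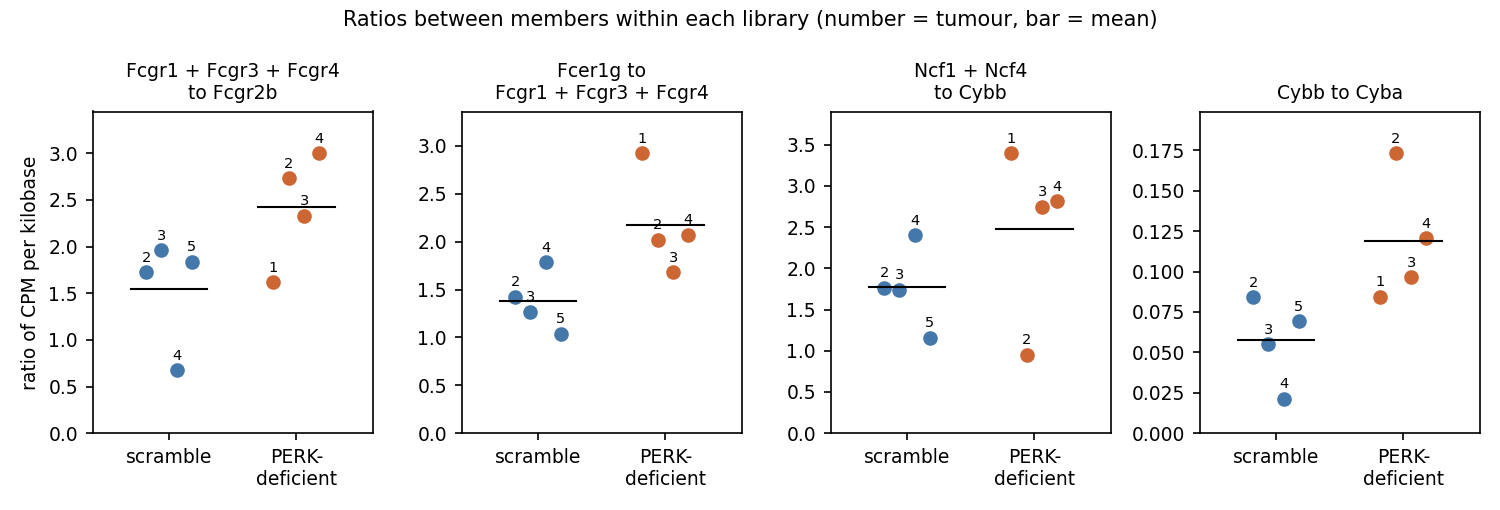
Ratios of CPM per kilobase between members in each library, with the tumour number beside each point and the group mean as a bar. The ratio of activating receptors to Fcgr2b is 0.676 in scramble library 4 and 1.72 to 1.96 in the other scramble libraries. It is 1.62 to 3.00 in PERK-deficient libraries, so the groups overlap. The ratio of Cybb to Cyba is the only one of the 4 whose groups do not overlap.

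Markers of macrophages and of leukocytes in general rose with the members. None of the listed B cell or NK and T cell markers passed in edgeR, though all tested ones had positive changes at low levels. Igkc, an antibody light chain gene outside these lists, was called higher (edgeR adjusted p = 0.00558). Of 17 macrophage markers, all tested, 16 were called higher, and their summed level was 71.7 to 167 CPM in scramble and 354 to 1014 CPM in PERK-deficient libraries. Of 16 tested pan-leukocyte markers 14 were called higher, with sums of 182 to 245 and 421 to 1435 CPM. Monocyte markers (8 of 11 called higher) took 262 to 404 and 452 to 613 CPM, and dendritic cell markers (8 of 10) 8.69 to 24.1 and 80.2 to 403 CPM. Neutrophil markers were scarce: 4 of 13 passed the filter and 1 was called higher, the sum was 0.580 to 3.02 and 2.34 to 13.5 CPM, and Ly6g, Camp, Ngp, Mpo and Stfa2l1 had no count in any library. B cell markers summed to 1.28 to 6.08 and 4.98 to 25.8 CPM, and NK and T cell markers to 1.47 to 4.31 and 1.81 to 41.8 CPM, both highest in PERK-deficient library 4. Of 6 tested B cell markers edgeR called 0, with 1 at an unadjusted p under 0.05, DESeq2 called 1 and limma-voom 0. Of 5 tested NK and T cell markers edgeR called 0, with 1 at an unadjusted p under 0.05, DESeq2 called 1 and limma-voom 0. The median log2 change was 1.26 for the tested B cell markers and 3.52 for the tested NK and T cell markers, against 2.48 for macrophage markers. Missed calls at such low levels do not show that lymphocyte markers stayed level. Endothelial markers (1 of 7 tested called higher) took 35.0 to 195 and 97.9 to 269 CPM. Epithelial markers also rose (8 of 9), from 3.31 to 5.82 CPM in scramble to 77.9 to 204 CPM in PERK-deficient libraries. The part of each cell type in the levels of the members was not tested.

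To read the members against these cells, the test over all genes was repeated with libraries scaled to the mean log2 level of the tested pan-leukocyte or macrophage markers, none of them a member. This moved the median log2 change of all genes from -0.02 to -2.35 and -2.28, and 73.9% and 73.2% of all genes were then called lower, with 0.63% and 0.876% called higher. Against pan-leukocyte markers, 8 of the 9 members no longer passed (edgeR adjusted p = 0.0720 to 0.933), with log2 differences of 0.24 for Fcgr1, -0.18 for Fcgr3, -0.55 for Fcgr4, 0.44 for Fcer1g, 0.08 for Cybb, 0.06 for Ncf1 and 1.82 for Ncf4. Cyba fell by 1.12 (edgeR adjusted p = 0.0491), and Fcgr2b had a difference of -1.01 (0.0720). Against macrophage markers Ncf4 alone passed, higher by 2.17 on the log2 scale (edgeR adjusted p = 0.0485), while Cyba was at -1.02 (0.0504) and Fcgr2b at -0.97 (0.0569). Per library, Fcgr2b lay 2.08 to 3.09 above the macrophage mean on the log2 scale in scramble and 1.34 to 1.57 above it in PERK-deficient tumours. Cyba lay 1.47 to 2.20 and 0.452 to 0.998 above it, without overlap in either case. With 73.2% of all genes called lower under macrophage scaling, such a fall is not particular to Fcgr2b or Cyba. The share of all genes without overlap on this scale was not computed. Fcer1g lay the other way, at 0.335 to 0.706 above the macrophage mean in scramble and 0.813 to 1.34 above it in PERK-deficient tumours, but against the pan-leukocyte mean its groups overlapped (0.180 to 0.481 and 0.312 to 1.54). Values of p that miss the threshold do not show that the other members kept pace with these markers.

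**Figure D3:**
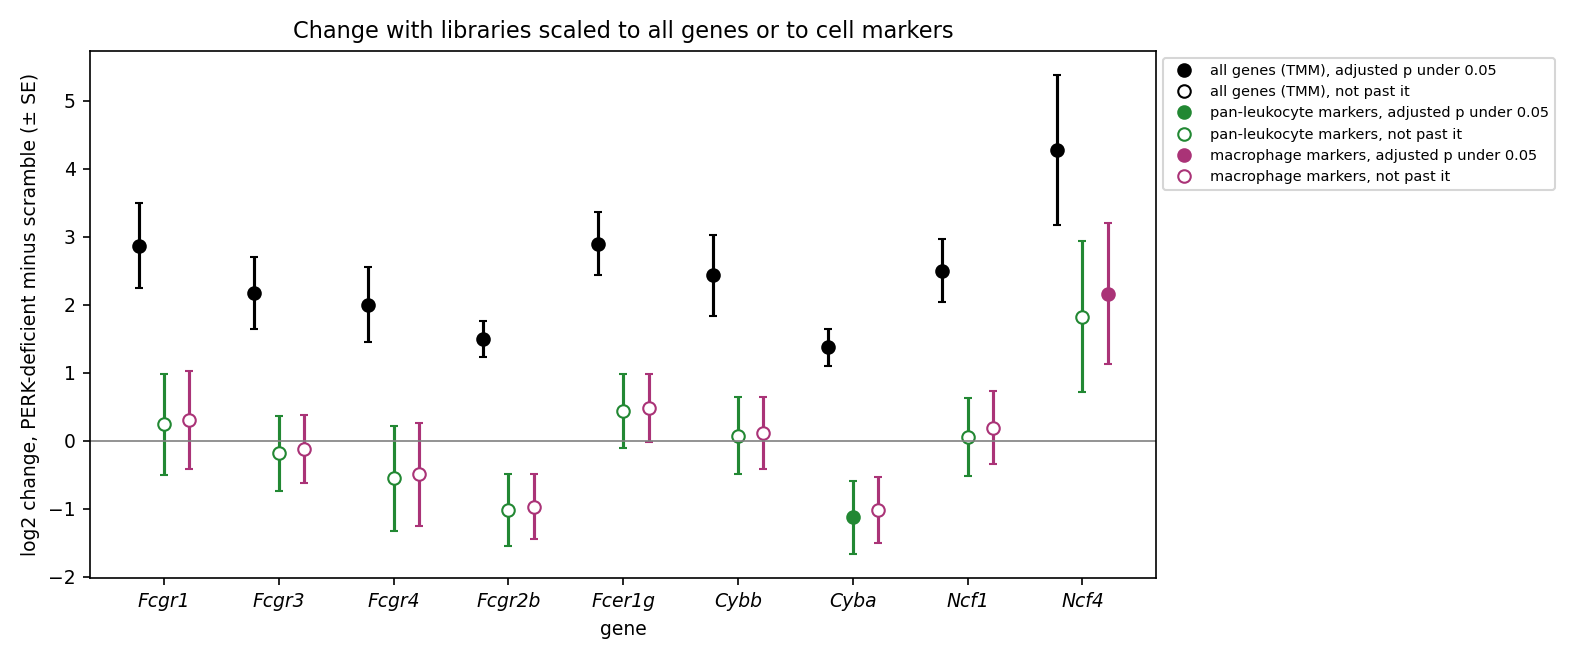
Log2 change of the members, PERK-deficient minus scramble, with its SE, for libraries scaled to all genes (TMM), to pan-leukocyte markers and to macrophage markers; filled points have an adjusted p under 0.05. With TMM all 9 members are filled and above 0, and with either marker scaling 1 member is filled.

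Of 7 further genes that work with the complex, 1 rose and 1 fell, with a median log2 change of 0.11. Over all tested genes 7.66% rose and 6.13% fell. Rac2, the Rac protein of blood cells, went from 4.10 ± 1.95 to 31.4 ± 23.9 CPM (SD, n = 4 and 4) and rose by 2.93 (edgeR adjusted p = 0.0176). Its call was lost with any of scramble replicates 2, 3 or 5 omitted (edgeR adjusted p = 0.0538, 0.0662 and 0.0515) and with no filter (0.0607), and its change was 2.26 without PERK_KO replicate 4. Hvcn1, the proton channel that balances the charge moved by the oxidase, fell by 0.37 (edgeR adjusted p = 0.0111), from 129 ± 7.96 to 99.7 ± 3.55 CPM, and this call ended without scramble replicate 3 (0.0516).

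Other NADPH oxidases were little represented. Of 10 listed genes 4 passed the filter and none was called by edgeR, with 1 of the 4 (Poldip2) at an unadjusted p under 0.05. Nox4, a constitutively active oxidase of non-phagocytic cells, had 2.95 ± 0.673 CPM in the scramble and 3.98 ± 1.20 CPM in the PERK-deficient group (edgeR adjusted p = 0.492). Poldip2, which binds Nox4, had 63.1 ± 3.66 and 48.0 ± 8.39 CPM (edgeR adjusted p = 0.0501). It passed with DESeq2 (adjusted p = 0.0481), with no filter (0.0431) and without PERK_KO replicate 1 (0.00735). Nox3, Duoxa2 and Noxa1 had no count in any library.

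Of 14 other Fc receptors and Fc receptor-like genes, 7 were tested and 4 rose, against 7.66% of all genes, with a median log2 change of 2.83. With pan-leukocyte scaling 0 of the 7 were higher and 2 lower, with a median of 0.27. Ms4a2 and Fcer1a, the beta and alpha chains of the mast cell IgE receptor, rose by 3.44 and 2.83 (edgeR adjusted p = 0.00612 and 0.0203). Fcrls, a receptor-like gene of microglia and tissue macrophages, rose by 2.47 (edgeR adjusted p = 0.00986), and Fcgrt, the neonatal receptor that recycles IgG, by 1.38 (0.0116). The Fcer1a call was lost with any of scramble replicates 3, 4 or 5 omitted (edgeR adjusted p = 0.0685, 0.0542 and 0.0554) or with PERK_KO replicate 4 omitted (0.0622), which also lowered its change to 2.16.

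Of 18 tested adaptors and kinases of the activating receptors 15 rose, against 7.66% of all tested genes, with a median log2 change of 2.29. Pan-leukocyte markers rose likewise, with 14 of 16 called and a median of 2.67. With libraries scaled to those markers, 0 of the 18 were higher and 5 lower, with a median of -0.13. Under that scaling 0.63% of all genes were higher and 73.9% lower. Lyn, a Src family kinase that phosphorylates the receptor motif, went from 7.50 ± 1.19 to 29.3 ± 15.5 CPM and rose by 1.97 (edgeR adjusted p = 0.00232). Bin2, a membrane-bending protein of leukocytes that acts in phagocytosis, rose by 2.97, Btk, a kinase of the Tec family, by 3.20, and Fgr, another Src family kinase, by 3.10 (edgeR adjusted p = 0.00156, 0.00361 and 0.00556). Fgr changed by 2.49 without PERK_KO replicate 4. Syk, the kinase recruited to Fcer1g, rose by 1.49 (edgeR adjusted p = 0.0194), a call that ended without scramble replicates 2, 3 or 4 (0.0619, 0.0624 and 0.0582).

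On the inhibitory side, 7 of 13 tested genes rose and 1 fell, with a median of 2.20, against 7.66% of all genes higher and 6.13% lower. With pan-leukocyte scaling 0 of the 13 were higher and 4 lower, with a median of -0.34. Inpp5d, the phosphatase recruited by Fcgr2b, went from 6.36 ± 3.81 to 50.1 ± 31.2 CPM and rose by 2.97 (edgeR adjusted p = 0.0243). That call was lost with any of scramble replicates 2 or 3 omitted (edgeR adjusted p = 0.0600 and 0.0880) and with no filter (0.0670). Among inhibitory receptors of myeloid cells, Lair1 rose by 3.10, Clec12a by 3.97, Pirb by 2.65 and Clec4a2 by 3.15 (edgeR adjusted p = 0.00775, 0.0133, 0.0150 and 0.0233). Clec12a changed by 3.23 without PERK_KO replicate 4. The Pirb call was lost with scramble replicate 3 omitted (edgeR adjusted p = 0.0597) and with no filter (0.0560), and that of Clec4a2 without scramble replicates 2, 3 or 5 (0.0708, 0.0511 and 0.0522) or PERK_KO replicate 2 (0.0764). The gene that fell was Sirpa, the receptor for CD47, by 0.31 (edgeR adjusted p = 0.0365). That call was lost when any scramble library (edgeR adjusted p = 0.0770 to 0.107) or PERK_KO replicates 1, 3 or 4 (0.0862, 0.0540 and 0.0694) were omitted, with RLE or upper-quartile factors (0.0668 and 0.0923), and under the stricter filter (0.0515).

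Of 8 listed ligand genes 2 were tested and 1 was called higher, against 7.66% of all tested genes. Transcripts of IgG heavy chains were almost absent. Ighg2b had no count in any library, and Ighg1, Ighg2c and Ighg3 did not pass the filter, with group means of at most 0.201 CPM. Igkc, the constant region of the kappa light chain that all antibody classes share, went from 2.09 ± 1.22 to 28.9 ± 19.4 CPM and rose by 3.78 (edgeR adjusted p = 0.00558). With pan-leukocyte scaling it was still called higher, by 1.28 (edgeR adjusted p = 0.0463), against 0.63% of all genes. With macrophage scaling it was higher by 1.45 (edgeR adjusted p = 0.0146), against 0.876% of all genes. The pentraxins Apcs and Crp, which Fc gamma receptors also bind, had no count. Ptx3, another listed pentraxin, had 0.258 ± 0.310 CPM in scramble and 1.05 ± 0.691 CPM in PERK-deficient libraries. It was not called (edgeR adjusted p = 0.391).

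**Figure D4:**
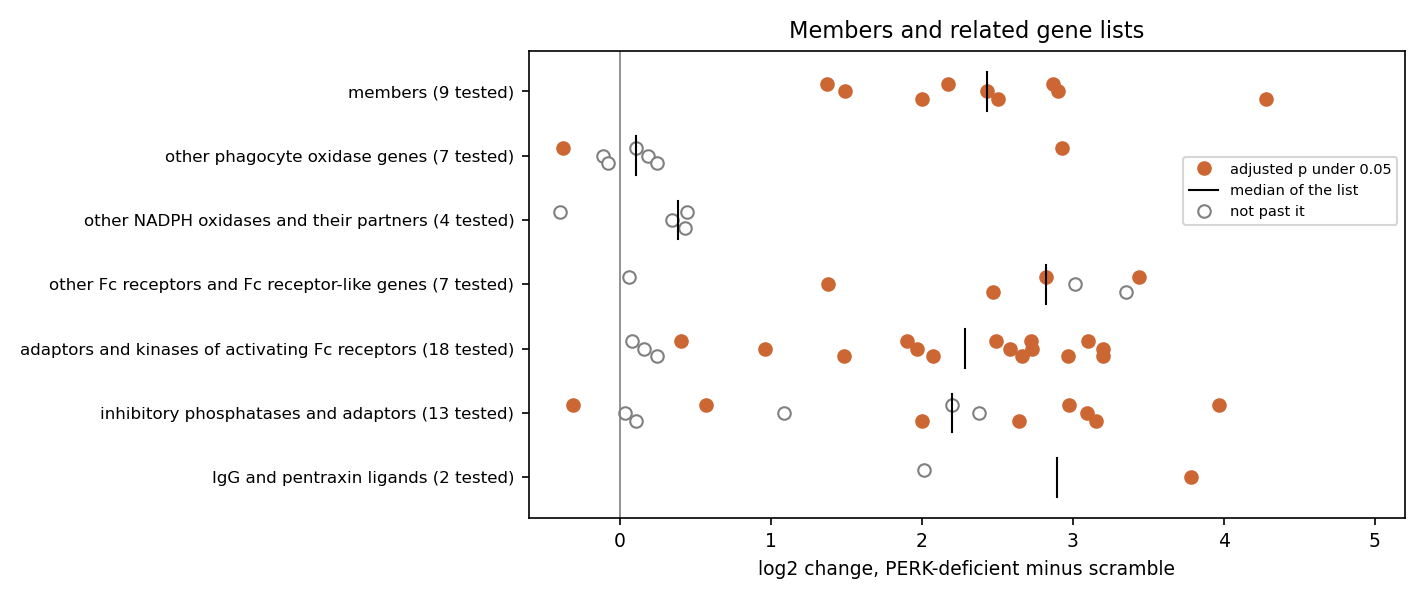
Log2 change of each tested gene in the members and in the related lists, filled where the adjusted p is under 0.05, with the median of each list as a bar. Medians lie at 2.44 for the members, 2.29 for activating adaptors and kinases and 2.20 for the inhibitory list, and at 0.11 for other genes of the phagocyte oxidase.

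Of the members, 4 sit in 1 neighbourhood of chromosome 1. Fcgr2b, Fcgr4 and Fcgr3 span 106 kb, and Fcer1g lies within 250 kb of them. Of the 16 other protein-coding genes tested within 250 kb of the cluster, 1 was called higher and 1 lower, and their median log2 change was -0.14. The gene called higher was Pcp4l1, with group means of 0.0136 CPM, under the floor of 3 counts, and 2.34 CPM (edgeR adjusted p = 0.00620). The gene called lower was Atf6, which fell by 0.29 (edgeR adjusted p = 0.0248). The Atf6 call was lost with upper-quartile factors (edgeR adjusted p = 0.0798), when any scramble library was omitted (0.0641 to 0.0745) and when PERK_KO replicate 4 was (0.0506).

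**Figure D5:**
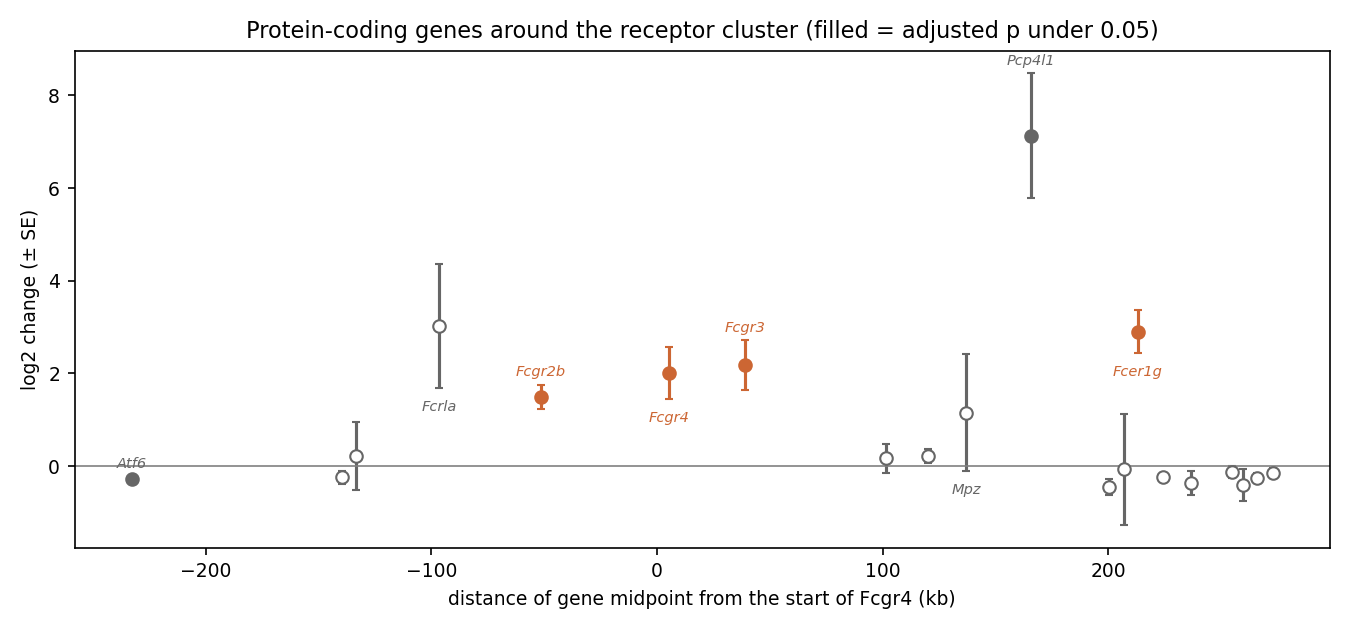
Log2 change with its SE of tested protein-coding genes around the receptor cluster, by distance of the gene's midpoint from the start of Fcgr4; members are in orange and filled points have an adjusted p under 0.05. The 4 members lie between 1.50 and 2.90, and 14 of the 16 other genes are open points.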

How the data were processed

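RNA was sequenced from 4 scramble and 4 PERK-deficient tumours; per the labels, libraries kept strand, began from 100 ng of RNA and were read from both ends at 105 bases. Build mm10, STAR 2.5.3a, HTSeq 0.6.1, DESeq2 1.30.1 and bcl2fastq appear in the submitters' processing notes, without roles or settings. The deposited raw table holds counts per gene; the deposited normalized table holds a signal, which was checked to equal the counts over a size factor for each column; it was not used further. All 55450 gene identifiers matched GENCODE M21, which gave positions and exon lengths.

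Genes were filtered with filterByExpr by group, scaled with TMM and tested with edgeR 4.0.16 (robust quasi-likelihood fit, ~ group, R 4.3.3) at a Benjamini-Hochberg adjusted p of 0.05 over all 16662 tested genes. Log2 CPM used a prior count of 2. The biological coefficient of variation was 46.3%. The fit was tested on simulated data. Depth, 29006949 to 56697163 counts a library, sets floors of 0.0515 to 0.100 CPM for 3 counts, which cover counting error only.

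The members and lists were chosen with earlier results of these data known. Named were all members, Eif2ak3, Kit, and from each list the called genes of lowest p, 4 at most (in a list without calls, the 2 of highest level). Syk, Inpp5d, Gtf2ird2, Sirpa, Pcp4l1, Atf6, Nox3, Duoxa2, Noxa1, the heavy chains and the pentraxins were named after their values were seen. Alternatives were DESeq2 1.42.0, limma-voom (limma 3.58.1) with quality weights, other scalings, filters and thresholds, a fit that is not robust, omission of each library and a replicate block. Leaving out PERK-deficient libraries 2 and 3 was chosen after seeing the data, from their mitochondrial share. 1 listed gene is not reported here.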

Additional observations from a re-analysis of the deposited data

Results flagged for a closer look

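Among 26 sets of 4 values tested for a value far from the others (each member and each of 4 ratios between members, in each group), 1 stood apart, and chance flags about 1 in 20 such sets. Fcgr3 was at 2.17 CPM in scramble library 4, while the other 3 scramble libraries had 8.28 to 9.09 CPM. The gap was 0.883 of the group's range, above Dixon's critical value at the 95% level. In the same library macrophage markers summed to 71.7 CPM, against 154 CPM or more in the other scramble libraries. Mast cell markers (23.1 CPM, against 136 or more), endothelial markers (35.0 CPM, against 169 or more) and dendritic cell markers (8.69 CPM, against 17.9 or more) were low there too. The part of these in the Fcgr3 value was not tested. Without scramble replicate 4 the log2 change of Fcgr3 was 1.88.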

How the results depend on the processing

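All 9 members passed with DESeq2, with RLE or upper-quartile factors and with library totals alone. They also passed in the fit that is not robust and at a change of at least 2-fold. Of 16662 genes, 1874, 1364, 1430, 1065, 1262 and 919 were called higher in these settings, in that order. With limma-voom 8 members passed, against 1423 of 16662 genes higher. Under the stricter filter all 8 that remain passed, against 1307 of 13409 genes higher. With no filter 6 passed, against 1106 of 25955 genes higher. Left-out libraries gave 4 to 9 called members, and Fcgr2b, Fcer1g, Cyba and Ncf1 were called in all 8 such sets. Without PERK-deficient libraries 2 and 3, 6 members were called, and Fcgr3, Fcgr4 and Cybb were not (edgeR adjusted p = 0.0627, 0.0926 and 0.0543). The count over all genes, 2299, was 1078 to 2616 with a library left out, 1049 at a change of at least 2-fold, and 12415 and 12338 with pan-leukocyte and macrophage scaling, where 0.846% and 1.18% of calls were higher. Of all calls 55.5% were higher with TMM, 68.7% with upper-quartile factors and 47.7% with library totals alone, where 1065 were higher and 1169 lower. The genes of the related lists, 30 called of 51, gave 18 to 30 with a library left out. Pan-leukocyte and macrophage scaling each left 1 member called (Cyba, lower, and Ncf4, higher) and turned the direction of Fcgr3 (-0.18 and -0.12), Fcgr4 (-0.55 and -0.49), Fcgr2b (-1.01 and -0.97), Cyba (-1.12 and -1.02), Nox4 (-1.82 and -1.71), Fcgrt (-1.19 and -1.10), Lyn (-0.57 and -0.40) and Syk (-1.10 and -0.92), which follows from dividing by markers that rose. Numbers 2, 3 and 4 occur in both groups, but same-numbered libraries did not deviate together (r = -0.01, 0.10 and -0.20). With a replicate block, 208 genes (127 higher and 81 lower), 1 member (Fcgr2b) and 1 list gene were called, in a fit with fewer residual degrees of freedom. PERK-deficient library 1 and scramble library 5 have no same-numbered library in the other group. They therefore add nothing to the group contrast in that fit. Depth limits Ncf4 most, with 73 counts over the 4 scramble libraries.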
